A study of Mus musculus with 59 samples.

Results

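Genes that act when a cell passes from G1 into S phase and copies its DNA were compared between livers of mice with altered E2F alleles. The set was a list of 45 symbols: the MCM helicase and the proteins that load and start it, DNA polymerases, the sliding clamp and its loader, enzymes of nucleotide supply, chromatin factors of the fork, and the cyclins E with the transcription factor Mybl2. Each gene was read from a probe set annotated to it alone, the brightest of its probe sets over the arrays, and 44 of the 45 genes had one, among 18193 genes measured. Chaf1a had no probe set with a single symbol. No measured value other than the brightness of a probe set was a criterion of the choice, but the list was drawn up with earlier results of these data known.

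The study measured liver RNA of mice aged 4 weeks (1 month), on a mixed background of FVB/NT, 129S1/Svlmj and C57BL/6NT, on Affymetrix arrays. Wild-type mice (wt, 12 arrays), mice with an E2f3a knock-out (3aKO, 10 arrays), with an E2F1 knock-in (1KI, 10 arrays) and with an E2F3b knock-in (3bKI, 5 arrays) were compared. All 37 arrays share strain background, age and tissue. Whether a knock-in mouse still carries the normal E2f3a allele, which locus and promoter drive the inserted sequence, and whether an array holds 1 animal or a pool cannot be read from these sources. The values are log2 signals in 2 normalizations by the authors. Normalization 1 comprises wt, 3aKO and 1KI, and normalization 2 repeats the wt and 3aKO arrays beside 3bKI, so 1KI and 3bKI were never set against each other. Since the labels do not say that arrays came from separate animals, the p-values reflect spread among these samples only, and that spread may be technical.

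E2F transcription factors bind the promoters of genes needed for DNA replication. In resting cells the retinoblastoma protein and its relatives hold these genes down through E2F, and when cyclin-dependent kinases inactivate these proteins in late G1 the genes are switched on. E2F1 and E2F3a are usually classed as activators, and E2F3b, made from the same locus as E2F3a from another start site, was long classed as a repressor. The liver of a young mouse still grows, so some of its hepatocytes cycle, whereas most hepatocytes of an adult liver rest in G0.

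The E2F recognition letters can be seen in the promoters of some members. On both strands, 4 spellings were searched in the 250 bases before each gene's start in the RefSeq promoter table of GRCm38.p6: TTTCCCGC, TTTGGCGC, TTTCGCGC and TTTGCCGC. Promoters were found for 37 members, and 9 of them (24.3%) held at least 1 match, namely Mcm5, Mcm6, Mcm7, Cdc6, Orc1, Pola1, Rfc3, Uhrf1 and Dnmt1. Over all genes of the table the share was 2.16% (583 of 27025), and over all promoters 1.86%. The 5 sequences below belong to members whose values are given in full whatever they showed, and capitals mark the matched letters on the printed strand or its complement. For Mcm6, Mcm5 and Rfc3 the bases shown lie outside the gene's annotated span. The matches of Cdc6 and Pola1 lie inside that span, and 30 bases around each are shown. In Mcm6 and Mcm5 the first run of capitals holds 2 matches on opposite strands that overlap, and Mcm6 has a further match nearer to the start. A match is a description of the letters and shows no binding. Of the members with a match, Mcm6, Pola1 and Rfc3 have a called change (defined below) at the brightest probe set, and the others have none. Chaf1b and Tk1, called in every knock-in comparison, had no match.
Mcm6, chr1:128359706-128359865, minus strand: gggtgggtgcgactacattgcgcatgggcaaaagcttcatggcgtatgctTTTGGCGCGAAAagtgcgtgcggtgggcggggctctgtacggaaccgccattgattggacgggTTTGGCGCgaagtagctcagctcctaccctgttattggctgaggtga
Mcm5, chr8:75109349-75109467, plus strand: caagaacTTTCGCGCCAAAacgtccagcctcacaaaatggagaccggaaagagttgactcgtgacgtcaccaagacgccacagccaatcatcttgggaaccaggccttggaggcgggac
Rfc3, chr5:151651209-151651368, minus strand: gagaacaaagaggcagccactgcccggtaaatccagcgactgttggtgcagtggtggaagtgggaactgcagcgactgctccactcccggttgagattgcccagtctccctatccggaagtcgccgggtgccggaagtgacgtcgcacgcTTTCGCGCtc
Cdc6, chr11:98908002-98908031, plus strand: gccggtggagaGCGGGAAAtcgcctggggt
Pola1, chrX:93632275-93632304, minus strand: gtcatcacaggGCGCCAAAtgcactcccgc

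Arrays of the genotypes also differed in signals that are not liver genes. All 1KI and 3bKI arrays and wt replicates 1 and 2 had a higher level of the spiked-in hybridization controls (from 11.0 to 11.9 on the log2 scale), and the other 10 wt and all 3aKO arrays a lower one (9.83 at the lowest). Poly-A controls stood at 13.8 ± 0.04 (SD, n = 5) in 3bKI and at 9.04 ± 0.39 (n = 12) in wt, and the 3' minus 5' signal of the Gapdh and Actb control probe sets, which grows as RNA degrades, was 0.31 ± 0.04 in 3bKI, 0.56 ± 0.05 in wt and 1.75 in 1KI replicate 6. The 9 measured hepatocyte markers had a mean log2 level between 14.05 and 14.22 on every array, near the top of the scale. In 1KI versus wt 2 of them rose, Hnf4a by 0.22 ± 0.05 and Fga by 0.14 ± 0.04, beside 10.2% of all genes. Both also rose in 1KI versus 3aKO (11.9% of all genes rose). In 3bKI, Fga rose by 0.28 ± 0.05 versus wt (13.4% of all genes rose). Versus 3aKO, Fga rose by 0.30 ± 0.05 and Hnf4a fell by 0.23 ± 0.08 in 3bKI, beside 16.5% and 17.7% of all genes. E2f3 in 3aKO had a log2 change of -0.25 ± 0.07 (SE) versus wt at its brighter probe set and did not pass (limma with Benjamini-Hochberg adjustment, adjusted p = 0.115), and the labels do not say which exons its probe sets cover. In 3bKI, E2f3 fell by 0.24 ± 0.09 versus wt at that probe set (adjusted p = 0.0486), and at the dimmer one rose by 0.40 ± 0.08 versus 3aKO (adjusted p = 0.000308). In 1KI, E2f1 was not higher at any of its 3 probe sets: the brightest had -0.25 ± 0.11 versus wt (adjusted p = 0.0849) and fell by 0.29 ± 0.11 versus 3aKO (adjusted p = 0.049). Which part of the E2f1 RNA these probe sets cover is not in the labels. In liver RNA, fewer cycling cells and less of each RNA per cell cannot be told apart.

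No replication gene was called in 3aKO, and both knock-ins showed lower levels of some of them. A gene counts as called where limma gave an adjusted p under 0.05 over all 18193 genes. In 3aKO versus wt, 0 of 44 members were called higher (0.11% of all genes were) and 0 lower (0.066% of all genes). At an unadjusted p under 0.05, 1 member was higher (Tyms, 4.92% of all genes) and 0 were lower (6.99%). In 1KI versus wt, 9 members fell and 0 rose, where 17.5% of all genes fell and 10.2% rose. At an unadjusted p under 0.05 likewise 0 members were higher in 1KI in either of its comparisons (13.3% and 15.8% of all genes were). In 1KI versus 3aKO, 14 fell and 0 rose, beside 19% and 11.9% of all genes. In 3bKI versus wt, 6 fell and 1 rose, beside 15.9% and 13.4%, and in 3bKI versus 3aKO 7 fell and 1 rose, beside 17.7% and 16.5%. The shares of members that fell were 20.5%, 31.8%, 13.6% and 15.9%, near those of all genes except in 1KI versus 3aKO. Single arrays moved these counts, and the shares of all genes in those fits are not given here. In 1KI versus wt, 5 members fell without wt replicate 3 or 12 or without 1KI replicate 1 or 5, 14 without 1KI replicate 9 or 3aKO replicate 1, and 15 without 1KI replicate 8. In 3bKI versus 3aKO, 12 fell without 3bKI replicate 4 and 2 rose without 3aKO replicate 1, and in 3bKI versus wt 0 rose without 3bKI replicate 1.

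Across the whole set the changes in the knock-ins leaned to lower values. The members' log2 changes had a median of 0.09 for 3aKO versus wt. For 1KI it was -0.31 versus wt and -0.35 versus 3aKO, and for 3bKI -0.24 versus wt and -0.37 versus 3aKO. Over all genes it lay between -0.05 and 0.02 in the 5 comparisons. Members with a change below 0 numbered 8, 38, 41, 36 and 36 of 44, against 54.9%, 64.4%, 57%, 49.8% and 46.1% of all genes. The knock-in comparisons share their knock-in arrays in pairs, and both normalizations use the same wt and 3aKO arrays, so these values are not independent of each other. With the level of the hybridization controls as a block, the median changes of the 4 knock-in comparisons were -0.04, -0.07, 0.03 and -0.01. In that fit 1, 1, 1 and 2 members remained called lower, and 2.17%, 1.11%, 5.39% and 4.38% of all genes. Outside the knock-ins only wt replicates 1 and 2 had the higher level, so all 4 blocked medians rest on these 2 arrays.

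**Figure D1:**
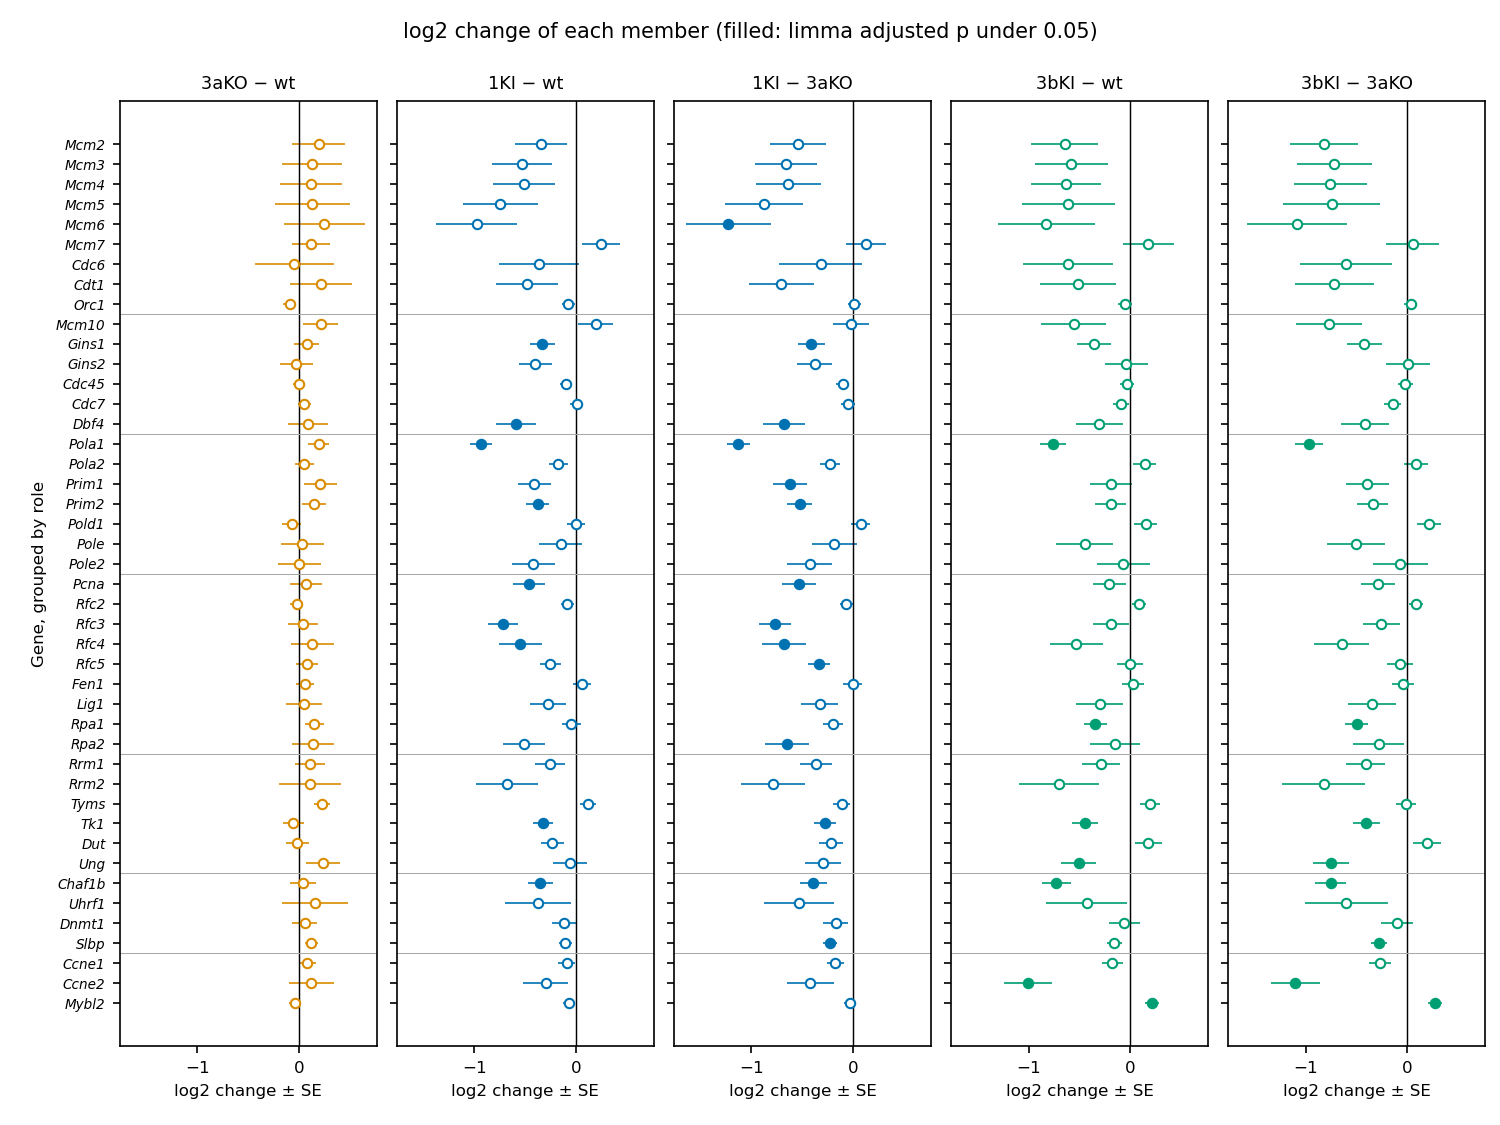
Log2 change of each of the 44 members (points) with the standard error of limma (bars) in the 5 comparisons, genes grouped by role from top to bottom. Filled points passed an adjusted p of 0.05: none in 3aKO versus wt, 9 in 1KI versus wt, 14 in 1KI versus 3aKO, 7 in 3bKI versus wt and 8 in 3bKI versus 3aKO.

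The genes that load the MCM helicase onto origins varied most and were rarely called. Orc1, Cdc6 and Cdt1 recruit the ring of Mcm2 to Mcm7 to DNA in G1. Of these 9 members, 0 fell in 1KI versus wt, 1 in 1KI versus 3aKO and 0 in either 3bKI comparison at the brightest probe set, with median log2 changes of -0.49, -0.64, -0.61 and -0.72. Mcm6, a subunit of the ring, ran from 7.67 to 10.28 in wt (median 7.92), from 7.41 to 10.81 in 3aKO (median 8.61) and from 5.58 to 9.35 in 1KI (median 7.47). The 3 groups overlapped widely: 1KI replicates 8 and 9 lay above 9, and the other 8 1KI arrays at or below 8.03. Against 3aKO, Mcm6 fell by 1.23 ± 0.42 (SE) on the log2 scale in 1KI, 2.34-fold (adjusted p = 0.0233, 8 of 10 arrays below the 3aKO mean), and without 3aKO replicate 1 the call was lost. Against wt the change was -0.98 ± 0.40 and did not pass (adjusted p = 0.0659). In 3bKI, Mcm6 read 8.26, 6.54, 8.30, 8.94 and 5.98 in replicates 1 to 5, with wt at a median of 7.89 in that normalization. Replicates 2 and 5 were low and the other 3 lay inside the wt range, and neither 3bKI comparison passed. Dimmer probe sets gave further calls. The second of Mcm6 fell by 1.44 ± 0.56 in 3bKI versus 3aKO (adjusted p = 0.0454 over all probe sets with 1 symbol) and by 1.45 ± 0.48 in 1KI versus 3aKO. The second of Mcm4 fell in 3bKI by 1.36 ± 0.43 versus wt (adjusted p = 0.0163) and by 1.58 ± 0.44 versus 3aKO (adjusted p = 0.00615), and by 1.02 ± 0.38 in 1KI versus 3aKO. Where the brightest probe set of Mcm4 was read, changes between -0.76 and -0.51 did not pass in these knock-in comparisons. Mcm3 had a dimmer probe set that fell by 0.49 ± 0.18 in 1KI versus 3aKO.

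Mcm5, another subunit of the ring, overlapped between genotypes in the same way. Its log2 value ran from 7.53 to 9.89 in wt (median 7.81), from 6.98 to 10.43 in 3aKO (median 8.29) and from 5.92 to 9.20 in 1KI (median 7.41). Its change was -0.74 ± 0.37 in 1KI versus wt (adjusted p = 0.132) and -0.88 ± 0.39 versus 3aKO (adjusted p = 0.0824), in each case with 8 of 10 1KI arrays below the mean of the other group. The 3bKI arrays read 8.25, 6.48, 8.28, 8.82 and 6.28, so that replicates 2 and 5 lay below every wt array and the other 3 within the wt range. Cdc6, the loader ATPase, was dim, with medians of 4.13 in wt, 4.44 in 3aKO and 3.98 in 1KI. Single arrays reached far above those medians: 6.42 in wt replicate 12, 7.16 in 3aKO replicate 1 and 6.21 in 1KI replicate 9. Its log2 change lay between -0.61 and -0.04 in the 5 comparisons and passed in none of them, with standard errors of 0.39 or more. Mcm7 was the member of the ring with changes above 0 in both knock-ins versus wt at the brightest probe set (0.25 ± 0.19 in 1KI and 0.18 ± 0.25 in 3bKI). Neither change passed. Dimmer probe sets of Mcm7 had changes of -0.05 ± 0.18, 0.03 ± 0.16 and -0.07 ± 0.18 in 1KI versus wt, none of which passed.

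Among the 6 genes that fire the loaded helicase, Dbf4 and Gins1 fell in 1KI. Dbf4 is the regulatory subunit of the Cdc7 kinase, which phosphorylates MCM, and Gins1 is part of the GINS complex of the active helicase. Dbf4 ran from 5.98 to 7.44 in wt (median 6.66), from 6.22 to 7.78 in 3aKO (median 6.58) and from 5.16 to 6.94 in 1KI (median 6.06). The groups overlapped, with 8 of 10 1KI arrays below the wt mean. Dbf4 fell by 0.59 ± 0.20 versus wt (adjusted p = 0.0262) and by 0.68 ± 0.21 versus 3aKO (adjusted p = 0.0121). Gins1 ran from 6.90 to 7.79 in wt (median 7.20), from 7.02 to 8.18 in 3aKO (median 7.21) and from 6.62 to 7.31 in 1KI (median 6.79). The 1KI arrays lay lower and overlapped with both groups. Gins1 fell by 0.33 ± 0.12 (adjusted p = 0.0443) and by 0.41 ± 0.13 (adjusted p = 0.0146). In 3bKI neither passed, though a dim second probe set of Gins1 fell there by 0.41 ± 0.10 versus 3aKO. Gins2, of the same complex, did not pass at its brightest probe set, and a dimmer one fell in 1KI by 0.55 ± 0.20 versus wt. The catalytic subunit Cdc7 had changes between -0.14 and 0.05 over the 5 comparisons.

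Mcm10, which helps to activate the helicase, behaved unlike the rest of the set. Its chosen probe set was bright, from 10.86 to 12.02 in wt, and read 9.48, 12.47, 9.43, 11.94 and 11.56 in the 3bKI arrays. Replicates 1 and 3 of 3bKI lay below every other array of that normalization, and replicate 2 above all of them. The change versus wt, -0.56 ± 0.32, did not pass (adjusted p = 0.204). Its other probe sets were dimmer, at mean levels of 6.89 and 3.90 in that normalization, with changes of -0.22 ± 0.18 and 0.09 ± 0.07.

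Pola1, the catalytic subunit of the polymerase that starts each new strand with primase, had the smallest p of the members in both 1KI comparisons. Its log2 value ran from 7.10 to 7.84 in wt (median 7.27), from 7.25 to 8.10 in 3aKO (median 7.43) and from 5.97 to 6.85 in 1KI (median 6.40). Every 1KI array lay below every wt and every 3aKO array, which was seen in that direction for 0.709% of all genes versus wt and 1.84% versus 3aKO. Pola1 fell by 0.93 ± 0.11 (SE) in 1KI versus wt, 1.91-fold (adjusted p = 7.08e-08), and by 1.13 ± 0.11 versus 3aKO, 2.19-fold (adjusted p = 3.51e-09). In 3bKI it read 6.84, 6.28, 6.70, 6.69 and 5.98, with wt between 7.01 and 7.77 and 3aKO between 7.21 and 8.02 in that normalization. All 5 arrays lay below all arrays of both groups, as for 4.47% and 6.74% of all genes. The fall was 0.76 ± 0.13 versus wt (1.69-fold, adjusted p = 4.51e-05) and 0.97 ± 0.13 versus 3aKO (1.96-fold, adjusted p = 1.87e-06). Blocked on the level of the hybridization controls, the change of Pola1 was -0.79 in 1KI versus wt (adjusted p = 0.0162), -0.96 in 1KI versus 3aKO (adjusted p = 0.0183), -0.79 in 3bKI versus 3aKO (adjusted p = 0.0387) and -0.61 in 3bKI versus wt (adjusted p = 0.062, not passed). A dim second probe set of Pola1, at a mean level of 3.44, had changes between -0.10 and 0.12 in these comparisons, none of which passed.

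Of the other 6 polymerase and primase genes, the 2 primase subunits fell in 1KI. Prim1, the catalytic subunit, ran from 7.54 to 8.90 in wt (median 7.76), from 7.72 to 9.04 in 3aKO (median 8.10) and from 7.07 to 8.12 in 1KI (median 7.48). All 10 1KI arrays lay below the 3aKO mean, though the ranges overlapped. Prim1 fell by 0.62 ± 0.17 versus 3aKO (1.54-fold, adjusted p = 0.0044), and its change versus wt, -0.41 ± 0.16, did not pass. Prim2, the large subunit, ran from 6.66 to 7.56 in wt (median 6.99), from 6.64 to 8.06 in 3aKO (median 7.16) and from 6.35 to 7.07 in 1KI (median 6.67). It fell by 0.37 ± 0.11 versus wt (adjusted p = 0.0138) and by 0.53 ± 0.12 versus 3aKO (adjusted p = 0.000929). Its 2 dimmer probe sets had changes of -0.06 ± 0.10 and 0.03 ± 0.07 versus wt and of -0.19 ± 0.11 and 0.12 ± 0.07 versus 3aKO, none of which passed, and with the mean of its probe sets the call versus wt was lost. Pola2, Pold1, Pole and Pole2, the partner of Pola1 and subunits of the polymerases that extend the strands, passed in none of the 5 comparisons at their brightest probe sets, and dimmer ones passed for Pola2 (higher), Pold1 (lower) and Pole2 (higher) in some knock-in comparisons.

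The clamp and some subunits of its loader were lower in 1KI, and none of these calls held when the fit was blocked on the level of the hybridization controls. Pcna, the sliding clamp, ran from 10.57 to 11.62 in wt (median 10.71), from 10.63 to 11.75 in 3aKO (median 10.95) and from 9.38 to 11.13 in 1KI (median 10.41). The 1KI arrays lay lower but overlapped with wt, and 1KI replicate 6 was lowest by far. Pcna fell by 0.46 ± 0.16 versus wt (1.37-fold, adjusted p = 0.0282) and by 0.53 ± 0.16 versus 3aKO (adjusted p = 0.013). Rfc3, a subunit of the clamp loader, ran from 6.77 to 8.07 in wt (median 7.15), from 6.92 to 8.24 in 3aKO (median 7.30) and from 6.05 to 6.98 in 1KI (median 6.49). All 10 1KI arrays lay below the mean of either group. Rfc3 fell by 0.72 ± 0.15 versus wt (1.65-fold, adjusted p = 0.000434) and by 0.77 ± 0.16 versus 3aKO (adjusted p = 0.000267), and its second probe set fell too, by 0.79 ± 0.16 and 0.81 ± 0.17. In 3bKI, Rfc3 read 7.35, 6.65, 7.04, 7.17 and 7.07, inside the wt range from 6.76 to 8.01 but for replicate 2. Its change there, -0.19 ± 0.18 versus wt, did not pass (adjusted p = 0.471). In the blocked fit of 1KI versus wt, the change was -0.20 for Pcna (adjusted p = 0.747), -0.39 for Rfc3 (adjusted p = 0.447) and -0.23 for Rfc4 (adjusted p = 0.787).

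Rfc4 and Rfc5, 2 more loader subunits, followed in 1KI. Rfc4 ran from 6.25 to 7.91 in wt (median 6.70), from 6.49 to 8.68 in 3aKO (median 6.93) and from 5.71 to 7.25 in 1KI (median 6.28). Its fall was 0.55 ± 0.21 versus wt (adjusted p = 0.0489) and 0.68 ± 0.22 versus 3aKO (adjusted p = 0.0166), with overlapping ranges. Rfc5 ran from 8.25 to 8.93 in wt (median 8.37), from 8.12 to 9.26 in 3aKO (median 8.56) and from 7.91 to 8.55 in 1KI (median 8.13). It fell by 0.33 ± 0.11 versus 3aKO (adjusted p = 0.0199). Its change versus wt, -0.25 ± 0.11, did not pass. Rfc2, another loader subunit, passed in none of the comparisons at its brightest probe set, where it was the least variable member in wt (SD 0.12). Its next probe set, at a mean level of 7.11 in normalization 1, fell by 0.27 ± 0.09 in 1KI versus wt (adjusted p = 0.0213 over all probe sets with 1 symbol) and by 0.40 ± 0.09 versus 3aKO, and in 3bKI by 0.33 ± 0.10 and 0.48 ± 0.10. Its dimmest probe set fell in 1KI versus wt by 0.26 ± 0.09 (adjusted p = 0.0205).

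Of the subunits of the single-strand binding protein, 2 are members, and their calls came in different genotypes. Rpa2 ran from 6.78 to 8.33 in wt (median 7.11), from 6.87 to 8.84 in 3aKO (median 7.36) and from 6.34 to 7.78 in 1KI (median 6.68). It fell by 0.65 ± 0.22 in 1KI versus 3aKO (1.57-fold, adjusted p = 0.0217), and its change versus wt, -0.51 ± 0.21, did not pass. Rpa1, the large subunit, read 10.14, 9.99, 10.18, 10.17 and 10.00 in 3bKI, with wt between 10.04 and 11.01 and 3aKO between 10.29 and 11.08. The 3bKI arrays lay below all 3aKO arrays and at the lower edge of wt. Rpa1 fell by 0.34 ± 0.11 in 3bKI versus wt (adjusted p = 0.021) and by 0.50 ± 0.12 versus 3aKO (adjusted p = 0.00115), whereas its second probe set had changes of -0.19 ± 0.13 and -0.22 ± 0.13, which did not pass. In 1KI versus wt, Rpa1 had a change of -0.05 ± 0.09. Whether Rpa1 or Rpa2 differs between 1KI and 3bKI was not tested. Fen1 and Lig1, which trim and join the lagging strand, passed in none of the 5 comparisons.

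Among the genes of nucleotide supply and uracil removal, Tk1 fell in both knock-ins and Ung in 3bKI. Tk1, the thymidine kinase of S phase, ran from 9.94 to 10.42 in wt (median 10.21), from 9.70 to 10.49 in 3aKO (median 10.12) and from 9.12 to 10.36 in 1KI (median 9.88). It fell by 0.33 ± 0.10 in 1KI versus wt (adjusted p = 0.0149) and by 0.27 ± 0.11 versus 3aKO (adjusted p = 0.0455), with 9 of 10 1KI arrays below each mean. In 3bKI it read 10.16, 9.02, 9.75, 9.91 and 9.31, of which replicates 1 and 4 lay within the wt range of 9.86 to 10.29 and the other 3 below it. The fall there was 0.45 ± 0.13 versus wt (1.36-fold, adjusted p = 0.00901) and 0.41 ± 0.13 versus 3aKO (adjusted p = 0.0182). Ung, the glycosylase that removes uracil from DNA, read 7.91, 8.48, 8.70, 8.21 and 8.03 in 3bKI, with wt between 8.12 and 9.31 (median 8.79) and 3aKO between 8.61 and 9.89 (median 8.92). Replicates 1 and 5 lay below all wt arrays and the other 3 within the wt range. Ung fell by 0.51 ± 0.17 versus wt (1.42-fold, adjusted p = 0.0241) and by 0.75 ± 0.17 versus 3aKO (1.68-fold, adjusted p = 0.00119).

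Tyms, thymidylate synthase, was at the dim end of the set. It ran from 3.40 to 4.14 in wt (median 3.76), from 3.79 to 4.23 in 3aKO (median 4.00) and from 3.49 to 4.17 in 1KI (median 3.90). All 10 3aKO arrays lay above the wt mean. The change in 3aKO, 0.23 ± 0.08, did not pass (adjusted p = 0.214), and the other 3 probe sets of Tyms, with mean levels between 3.48 and 3.58, had changes between -0.09 and 0.04 in that comparison. One of those dim probe sets rose in 1KI versus wt by 0.31 ± 0.08, where the chosen one had 0.12 ± 0.08. Rrm1 and Rrm2, the subunits of ribonucleotide reductase, and Dut, which breaks down dUTP, passed in none of the 5 comparisons at their brightest probe sets. Rrm2 had changes of -0.68 ± 0.31 in 1KI and -0.70 ± 0.40 in 3bKI versus wt.

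Chaf1b, a subunit of the histone chaperone that works behind the fork, fell in both knock-ins. It ran from 6.27 to 7.24 in wt (median 6.89), from 6.55 to 7.75 in 3aKO (median 6.83) and from 6.04 to 7.08 in 1KI (median 6.47). Its fall in 1KI was 0.35 ± 0.13 versus wt (1.27-fold, adjusted p = 0.0385) and 0.39 ± 0.13 versus 3aKO (adjusted p = 0.023), with 9 of 10 arrays below each mean. The 3bKI arrays were nearly alike, at 6.09, 6.14, 6.22, 6.17 and 6.07. All 5 lay below every wt array (lowest 6.26) and every 3aKO array (lowest 6.52), with an SD of 0.06 against 0.29 in wt. Chaf1b fell in 3bKI by 0.73 ± 0.14 versus wt (1.65-fold, adjusted p = 0.000277) and by 0.75 ± 0.15 versus 3aKO (1.69-fold, adjusted p = 0.000204). Blocked on the level of the hybridization controls, its change was -0.85 versus wt (adjusted p = 0.0194) and -0.91 versus 3aKO (adjusted p = 0.0337) in 3bKI, and -0.44 in 1KI versus wt (adjusted p = 0.3, not passed). A dimmer probe set of Chaf1b, at a mean level of 5.36 in that normalization, had changes of -0.10 ± 0.07 and -0.03 ± 0.07 in 3bKI, which did not pass.

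Slbp, which binds the stem-loop of histone messengers, went opposite ways at its 2 brighter probe sets. At the brightest it read 9.15, 9.00, 9.15, 9.03 and 9.09 in 3bKI, below every 3aKO array (from 9.19 to 9.74). There it fell by 0.28 ± 0.08 in 3bKI versus 3aKO (adjusted p = 0.00589), and by 0.23 ± 0.07 in 1KI versus 3aKO (adjusted p = 0.0133). The next probe set, with a mean level of 5.60 in the first normalization, rose by 0.84 ± 0.14 in 1KI and by 0.81 ± 0.12 in 3bKI versus 3aKO, and by 0.81 ± 0.14 and 0.82 ± 0.12 versus wt. The direction of Slbp therefore depends on the probe set. Dnmt1, which copies DNA methylation to the new strand, and its partner Uhrf1 passed in none of the 5 comparisons.

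Of the 3 regulators, Ccne2 fell and Mybl2 rose in 3bKI. Cyclins E1 and E2 activate the kinase Cdk2 at the start of S phase, and Mybl2 (B-Myb) is an E2F target that takes part in switching on mitotic genes. Ccne2 read 4.43, 4.03, 4.77, 4.82 and 3.98 in 3bKI, with wt between 4.78 and 6.65 (median 5.25) and 3aKO between 4.91 and 6.25 (median 5.47). All 5 lay below every 3aKO array, and 4 of them below every wt array. Ccne2 fell by 1.00 ± 0.24 versus wt (2.00-fold, adjusted p = 0.00165) and by 1.10 ± 0.24 versus 3aKO (2.15-fold, adjusted p = 0.00072). In 1KI its changes were -0.30 ± 0.22 and -0.42 ± 0.23 and did not pass. Ccne1 had medians of 7.37 in wt, 7.42 in 3aKO and 7.28 in 1KI in normalization 1. In normalization 2 they were 7.23 in wt, 7.33 in 3aKO and 6.96 in 3bKI, where the arrays read 6.65, 7.48, 7.21, 6.96 and 6.83. Its changes, between -0.27 and 0.08, passed in none of the comparisons. In 3bKI versus 3aKO the adjusted p was 0.0587, and the call was made in 5 of 13 other settings and without 1 array in 4 of 27 fits. A second probe set of nearly the same brightness (7.02) fell there by 0.46 ± 0.14 (adjusted p = 0.00956). Mybl2 was dim, at 5.34, 5.20, 5.27, 5.07 and 5.29 in 3bKI and between 4.82 and 5.30 in wt, and rose by 0.22 ± 0.07 (1.16-fold, adjusted p = 0.0138) and by 0.28 ± 0.07 versus 3aKO (1.21-fold, adjusted p = 0.0022). All 5 arrays lay above both means while the ranges overlapped. A dimmer probe set of Mybl2 rose too, by 0.26 ± 0.09 and 0.36 ± 0.09, and it also rose in 1KI, by 0.23 ± 0.06 versus wt, where the brighter one had -0.07 ± 0.06.

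**Figure D2:**
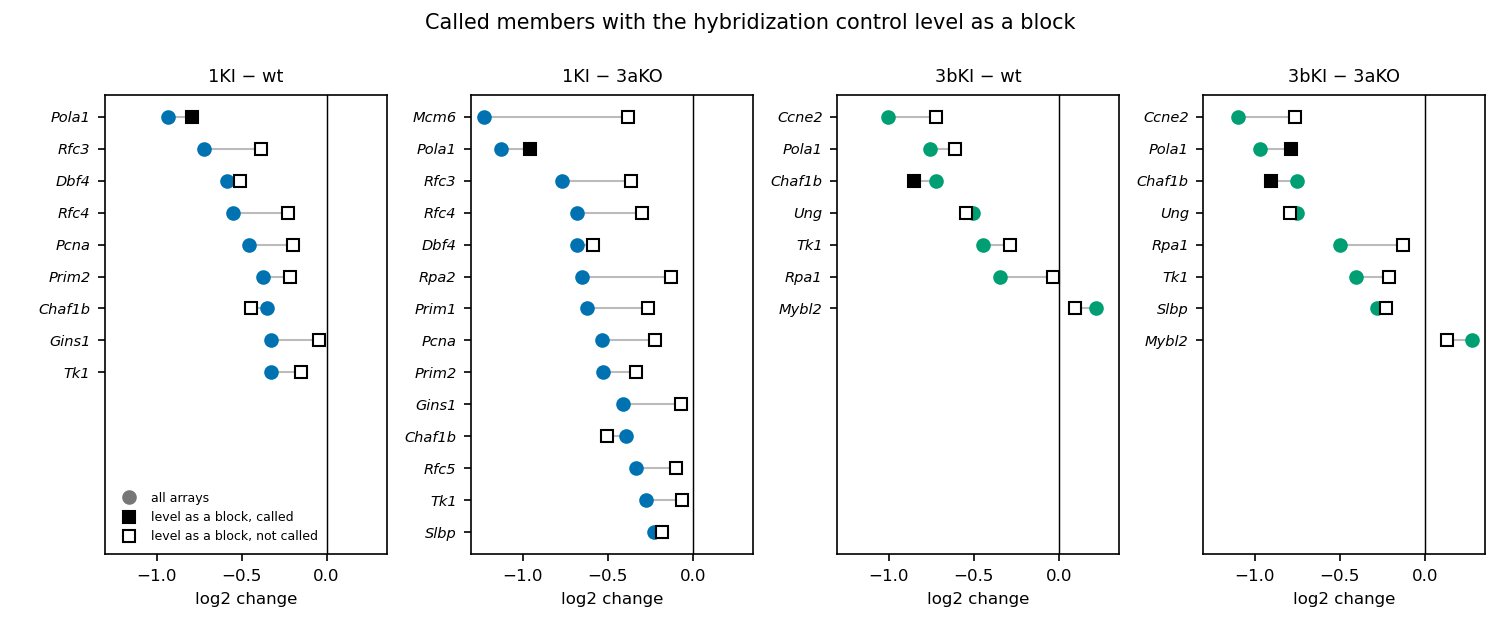
Log2 change of each called member in the 4 knock-in comparisons, over all arrays (coloured circles) and blocked on the level of the hybridization controls (squares, filled where still called). Pola1 stayed called in 3 of the 4 comparisons and Chaf1b in both with 3bKI, and the values of Gins1, Rpa1 and Rpa2 moved to between -0.13 and -0.03.

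Technical measures moved together with these calls, and their part in the result was not tested beyond the fits given here. No array of 3aKO shared the hybridization control level of the knock-ins, and in wt only replicates 1 and 2 did. The blocked changes versus wt and versus 3aKO therefore both rest on these 2 wt arrays. A call lost in the blocked fit cannot be read as an absent difference. Without those 2 wt arrays, 8 of the 9 calls in 1KI versus wt were kept and all calls of the other 3 comparisons. That fit cannot separate level from genotype, since every knock-in array then had the higher level and every other array the lower one. With RNA integrity as a covariate, the 3bKI calls fell to 2 of 7 versus wt (Pola1 and Chaf1b) and to 1 of 8 versus 3aKO (Pola1), while 7 of 9 and 14 of 14 calls were kept in 1KI. The median member change in 3bKI moved away from 0 in that fit, from -0.24 to -0.50 versus wt and from -0.37 to -0.66 versus 3aKO. In 1KI the median was -0.30 versus wt and -0.34 versus 3aKO. RNA integrity of 3bKI (0.28 to 0.36) did not overlap with that of wt (0.48 to 0.65), so the covariate and the genotype cannot be told apart there.

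Several calls depended on single arrays. In 1KI versus wt, Pola1, Rfc3, Prim2 and Tk1 stayed called whichever array was left out, but of these only Pola1 held in the fit blocked on the hybridization controls (adjusted p of 0.447 for Rfc3, 0.612 for Prim2 and 0.69 for Tk1). Pcna lost its call without wt replicate 3 or 12 or 1KI replicate 6, and Dbf4 without 1KI replicate 1, 4 or 5. Chaf1b lost it without wt replicate 2, 3, 6, 8, 9, 11 or 12 or 1KI replicate 1, 3, 4, 5 or 10, and Gins1 without wt replicate 3, 5, 6, 7, 11 or 12 or 1KI replicate 1, 2, 5, 6, 7 or 10. Rfc4 lost it without wt replicate 3, 6, 7, 9, 11 or 12, without any 1KI array other than replicates 8 and 9, and without any 3aKO array other than replicates 1 and 4. In 1KI versus 3aKO, Mcm6 lost its call without 3aKO replicate 1 or 1KI replicate 1, Rpa2 and Chaf1b without 3aKO replicate 1, and Tk1 without 3aKO replicate 1, 2, 3, 6, 8 or 10 or 1KI replicate 1, 5, 6, 7, 8 or 9. In 3bKI versus wt, Mybl2 lost its call without 3bKI replicate 1, Ung without replicate 1, 4 or 5, Rpa1 without replicate 2 or 5 and Tk1 without replicate 2. Against 3aKO, Tk1 lost its call without 3bKI replicate 2 or 5, and the other 7 calls held.

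Between arrays of 1 genotype, most replication genes spread more widely than most genes. The median SD of the members was 0.35 in wt, 0.37 in 3aKO, 0.33 in 1KI and 0.34 in 3bKI, and that of all genes 0.14, 0.14, 0.16 and 0.17. An SD over 0.5 was found for 13 members in wt, 16 in 3aKO, 14 in 1KI and 11 in 3bKI, and for 1.25%, 1.21%, 3.13% and 3.45% of all genes. Cdc6 had the largest SD in wt (1.03) and in 3aKO (0.95), Mcm6 in 1KI (1.14) and Mcm10 in 3bKI (1.43). At the other end stood Rfc2 in wt (0.12), Cdc7 in 3aKO (0.12), Mybl2 in 1KI (0.14) and Chaf1b in 3bKI (0.06). Without replicate 1 the median member SD in 3aKO was 0.21, beside 0.13 for all genes.

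No member was called for a different spread between genotypes. A limma fit on the distance of each array from its group median called 0 members in each of the 5 comparisons, and 0, 7, 7, 2 and 5 genes of all 18193, or 0%, 0.0385%, 0.0385%, 0.011% and 0.0275% with a larger spread. At an unadjusted p under 0.05, 0 members had a larger spread in 3aKO versus wt (1.5% of all genes) and in 1KI versus 3aKO (6.03%), Mcm10 had one in 1KI versus wt (5.79%), and Mcm10 and Tk1 did in both 3bKI comparisons (6.82% and 6.94%). Their adjusted p lay between 0.179 and 0.601. With distances from the group mean in place of the median, Mcm10 was called in both 3bKI comparisons (adjusted p = 2.69e-06 and 5e-06) and Tk1 in 3bKI versus wt (adjusted p = 0.021). Calls of a different spread also appeared without 3bKI replicate 2, 3, 4 or 5, for 1 member versus 3aKO and for 1 or, without replicate 4, 2 members versus wt. The shares of all genes called in these other fits of spread are not given here.

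**Figure D3:**
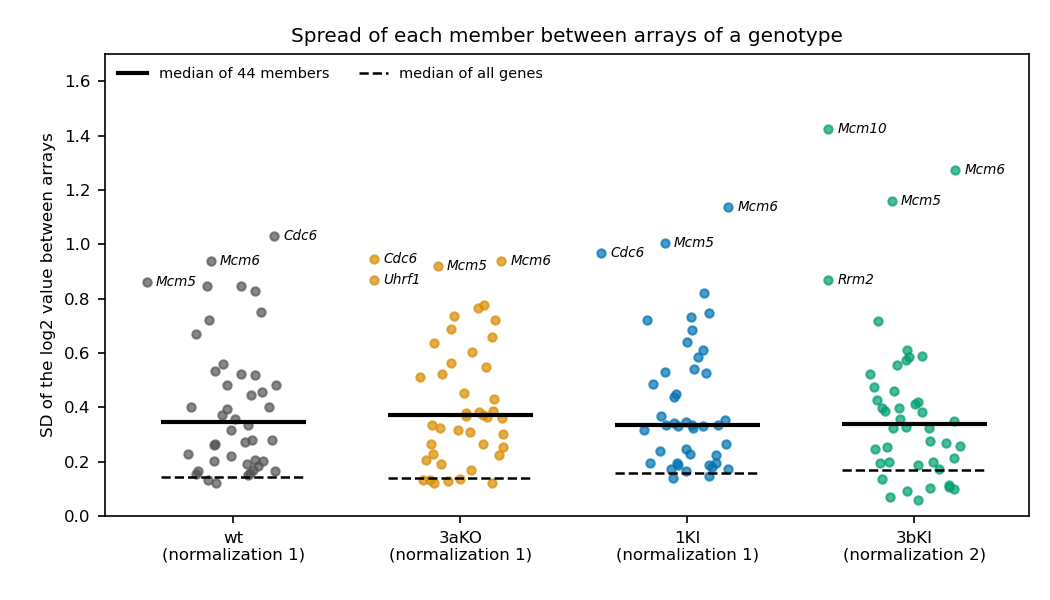
Standard deviation of the log2 value between arrays of a genotype for each of the 44 members (points, n = 12, 10, 10 and 5 arrays), with the median of the members (solid line) and of all genes (dashed line). The members' median lies between 0.33 and 0.37 and that of all genes between 0.14 and 0.17, and Cdc6, Mcm5 and Mcm6 are among the highest in wt, 3aKO and 1KI.

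Most members rose and fell together from array to array within a genotype. Each member was correlated with the mean of the other members over arrays, after the mean of its genotype had been subtracted. The median correlation was 0.85 over 32 arrays in the first normalization and 0.88 over 27 in the second, and 34 and 35 of 44 members exceeded 0.7. Among other genes, 0.964% and 1.07% exceeded 0.7 with the mean of the members. The arrays of a normalization share its processing and the members share each array's RNA and hybridization, so the values are descriptions. Within single genotypes of the first normalization 33 members exceeded 0.7 in wt, 35 in 3aKO and 29 in 1KI, and without 3aKO replicate 1 31 did over all arrays.

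Genes of origin licensing were prominent in this shared movement. Mcm3 (0.98), Rrm1 (0.98), Mcm4 (0.97), Cdt1 (0.97) and Uhrf1 (0.97) had the highest correlations in the first normalization. None of the 7 members above 0.95 there, which also include Mcm5 and Cdc6, was called in any knock-in comparison at its brightest probe set. Just below that cut, Rpa2 (0.948), Rfc4 (0.939), Mcm6 (0.929) and Prim1 (0.911) were called in 1KI. Mcm2 (0.947), Gins2 (0.932), Mcm7 (0.922), Dnmt1 (0.921), Rrm2 (0.920) and Lig1 (0.920) were called in no comparison there. The split at 0.95 therefore rests on the cut. In the second normalization the members above 0.95 included some that were called in 1KI, namely Rfc4 (0.98), Pcna (0.96), Rpa2 (0.96) and Prim1 (0.96). Pola1 (0.78), Chaf1b (0.76) and Tk1 (0.34), called in every knock-in comparison, followed the shared movement less closely. Mcm10 (-0.20), Mybl2 (-0.12), Cdc7 (-0.08), Orc1 (0.03) and Ccne1 (0.16) did not follow it. Orc1 gave a level of 7.62 at its chosen probe set and 5.01 at another.

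Genes outside the set with the most similar pattern, among those above the median signal, were also known from replicating cells. In the first normalization they were Dnajc9, a histone chaperone (r = 0.97 over 32 arrays), Topbp1, which takes part in starting replication (0.96), Tcf19 (0.96), and the condensin subunits Smc2 (0.96) and Smc4 (0.94). In the second they were Tcf19 (0.97 over 27 arrays), Topbp1 (0.95), Dnajc9 (0.95), Timeless, a fork protein (0.95), and Smc2 (0.93).

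Single arrays stood out in this movement. The mean deviation of the 44 members from the wt mean was 1.06 in 3aKO replicate 1, the highest of all arrays, which held the highest 3aKO value for 37 of 44 members. The next 3aKO array stood at 0.22, and 3aKO replicate 4, the lowest for 30 members, at -0.37. Among wt arrays, replicates 3, 12 and 11 stood at 0.69, 0.53 and 0.38 and the other 9 between -0.34 and 0.11. In 1KI, replicates 8 and 9 stood at 0.28 and 0.29 and the other 8 between -0.66 and -0.31. The 3bKI arrays stood at -0.17, -0.58, -0.08, 0.00 and -0.59. Hence 8 of 10 1KI arrays and 2 of 5 3bKI arrays lay below the wt median of this measure (-0.19 and -0.18), and 7 and 2 below the lowest wt array. The wt arrays that shared the hybridization control level of the knock-ins, replicates 1 and 2, stood at -0.24 and -0.26.

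**Figure D4:**
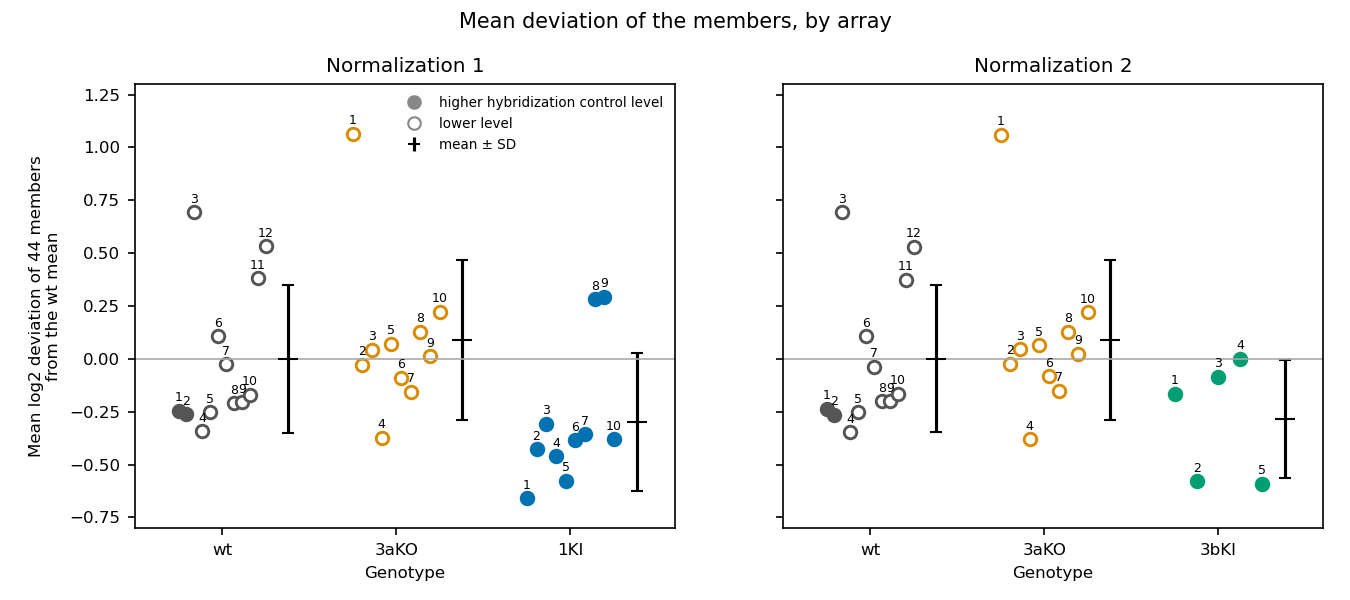
Mean log2 deviation of the 44 members from the wt mean for each array (circles, numbered by replicate) in both normalizations, with the mean and SD of each genotype in black. Filled circles have the higher hybridization control level, which all 1KI and 3bKI arrays and wt replicates 1 and 2 share, and 3aKO replicate 1 stands above all others at 1.06.

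The high and low arrays were the same for most roles. In the picture of all members by array, wt replicates 3, 11 and 12, 3aKO replicate 1 and 1KI replicates 8 and 9 form columns of high values through the licensing genes, the polymerases, the clamp loader and ribonucleotide reductase, whereas Orc1, Cdc45, Cdc7, Tyms, Ccne1 and Mybl2 show little of it. Pola1 remains low in 1KI replicates 8 (6.85) and 9 (6.81), below the lowest wt value of 7.10, although most members are high there.

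**Figure D5:**
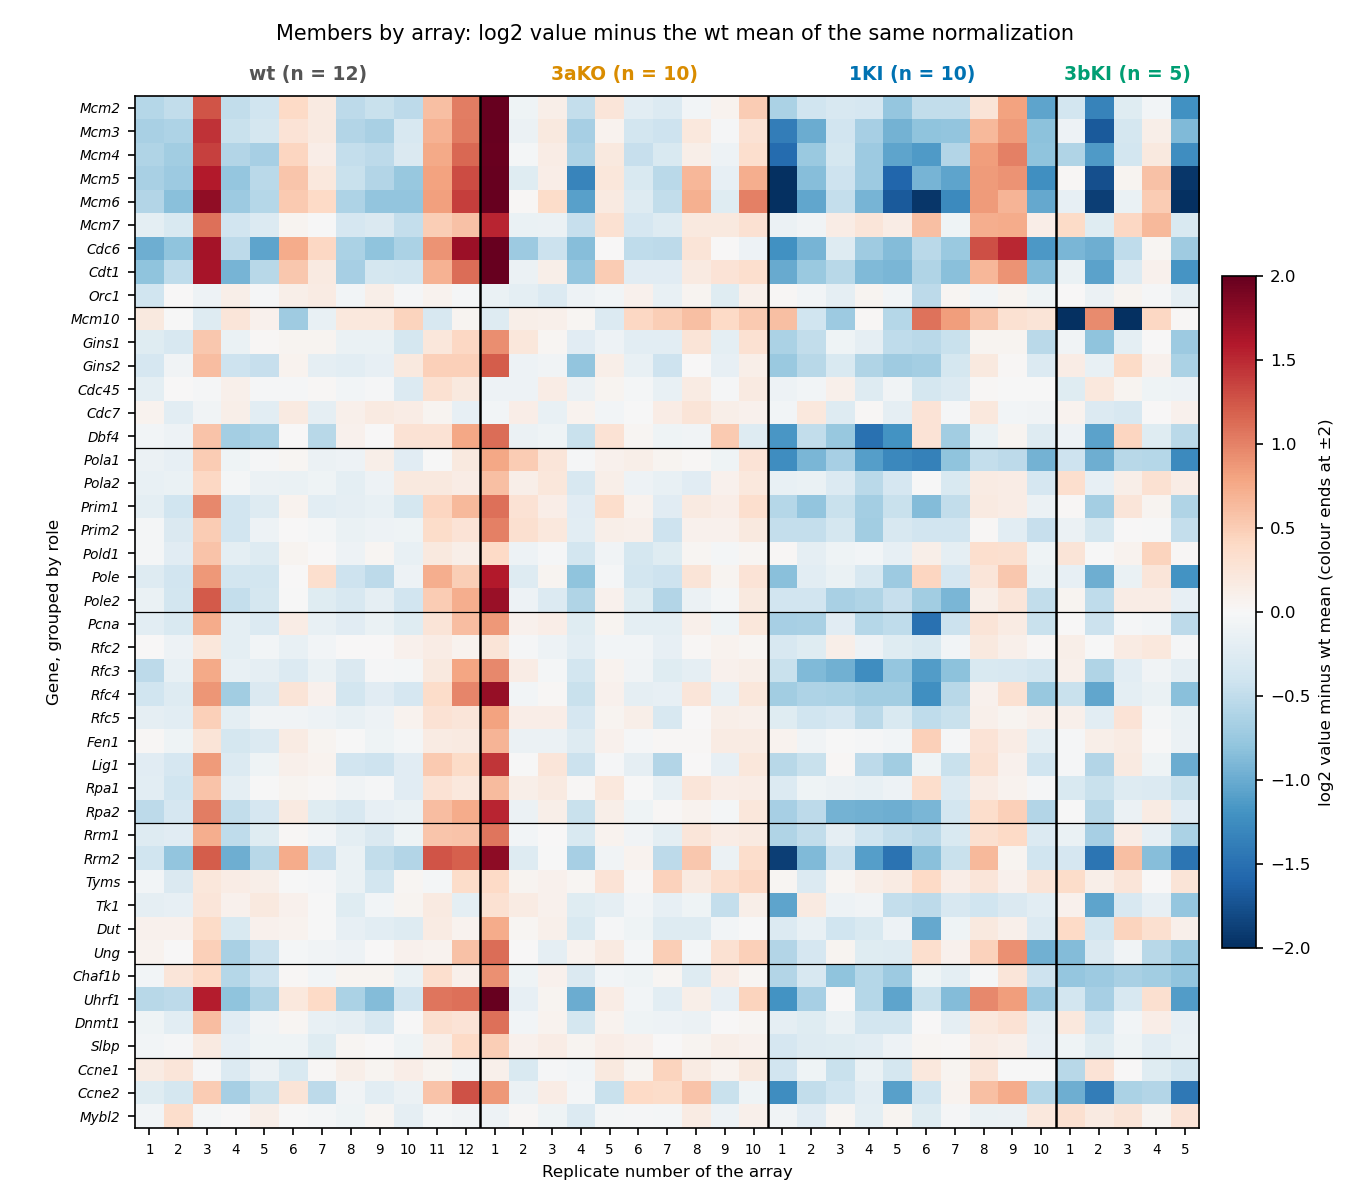
Log2 value of each of the 44 members minus its wt mean in the same normalization (colour, ends at ±2), for every array of wt, 3aKO and 1KI in the first normalization and of 3bKI in the second, genes grouped by role. Columns of high values appear at wt replicates 3, 11 and 12, at 3aKO replicate 1 and at 1KI replicates 8 and 9.

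Other genes of DNA replication, outside the set, were called lower more often than higher in the knock-ins, and so were all genes. Of 47 measured, 0 were called in 3aKO versus wt, 1 rose and 7 fell in 1KI versus wt, 1 rose and 13 fell in 1KI versus 3aKO, 2 rose and 13 fell in 3bKI versus wt, and 4 rose and 16 fell in 3bKI versus 3aKO. In the 4 knock-in comparisons 17.5%, 19%, 15.9% and 17.7% of all genes fell, and 10.2%, 11.9%, 13.4% and 16.5% rose. The median changes of these 47 were 0.06, -0.17, -0.20, -0.17 and -0.23. In 1KI versus wt, Orc5, a subunit of the origin recognition complex, fell by 0.27 ± 0.06 (adjusted p = 0.000402), Rpa3, the small subunit of the single-strand binding protein, fell by 0.40 ± 0.09 (adjusted p = 0.0011) and the helicase Recql4 rose by 0.22 ± 0.05 (adjusted p = 0.00251). In 3bKI versus wt, Nasp, a histone chaperone, fell by 0.60 ± 0.09 (adjusted p = 3.99e-06), Usp1, a deubiquitinase that acts on the clamp, fell by 0.43 ± 0.09 (adjusted p = 0.000617) and Pold4, a small polymerase subunit, rose by 0.47 ± 0.09 (adjusted p = 0.000181).

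Genes of mitosis, which act after S phase, had calls mostly in 1KI versus 3aKO. Of 19 measured, 0 passed in 3aKO versus wt, 2 fell in 1KI versus wt, 6 fell in 1KI versus 3aKO, 0 passed in 3bKI versus wt, and 1 rose and 1 fell in 3bKI versus 3aKO. Of all genes 17.5% fell in 1KI versus wt and 19% versus 3aKO, and whether these counts differ from those of the replication genes was not tested. Ube2c, an enzyme of the anaphase-promoting complex, fell by 0.72 ± 0.22 (adjusted p = 0.0128) and the checkpoint gene Mad2l1 by 0.60 ± 0.20 (adjusted p = 0.0225) in 1KI versus wt. The 2 gene groups parted on 3bKI replicate 3, which stood at -0.08 for the members and at 1.13 for the mitosis genes. On 3aKO replicate 1 both groups were high, at 1.06 and 0.93.

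Some markers of other cells in the liver were also called, and their part in the results was not tested. Of all genes, 17.5% fell and 10.2% rose in 1KI versus wt, and 15.9% and 13.4% in 3bKI versus wt. Versus 3aKO these shares were 19% and 11.9% in 1KI, and 17.7% and 16.5% in 3bKI. Of 10 Kupffer cell and macrophage markers, 4 fell in 1KI versus 3aKO, led by Timd4 with -0.64 ± 0.15, and their mean log2 level ran from 8.59 to 10.2 in 1KI and from 9.16 to 10.1 in 3aKO, while 0 passed in 1KI versus wt. In 3bKI versus wt 1 of these 10 rose (Cd5l, 0.54 ± 0.15), and versus 3aKO 1 fell (Marco, -0.91 ± 0.28). Of 9 lymphocyte markers, 2 fell in 1KI and 2 rose in 3bKI versus wt, with mean levels between 5.81 and 6.21 on all arrays of the 3 genotypes. Versus 3aKO, 3 of these markers fell and 1 rose (Cd8a) in 1KI, and 2 rose in 3bKI. Of 8 erythroid precursor markers, 0 passed in 1KI and 1 rose in 3bKI versus wt (Alas2, by 1.09 ± 0.33), with a mean level of 5.53 to 6.12 in 3bKI and of 5.56 to 5.92 in wt. Endothelial and neutrophil markers, 8 each, had at most 1 call versus wt in either knock-in. Versus 3aKO, 1 endothelial marker rose (Lyve1, 0.72 ± 0.21) and 1 fell (Kdr, -0.28 ± 0.09) in 1KI. In 3bKI, 2 rose (Pecam1, 0.60 ± 0.13, and Clec4g, 0.29 ± 0.10). Of the neutrophil markers, 0 passed in 1KI and 1 rose in 3bKI versus 3aKO (Elane, 0.33 ± 0.10). Of the erythroid markers, 1 rose in 1KI (Epor, 0.14 ± 0.05) and 1 in 3bKI (Alas2, 1.23 ± 0.34) versus 3aKO. In 3aKO versus wt, 0 markers of these lists passed.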

How the data were processed

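Log2 signals of 45101 probe sets were taken as deposited by the authors in a value table of 59 columns. These are 37 arrays, 22 of them present in 2 normalizations (correlation of 0.999 or more between the copies). Per the labels' protocols, total RNA was extracted with Trizol and biotinylated cRNA was made from 5 ug. The sources used here name no normalization method, and the log base follows from the range of the values (2.13 to 15.06). No read depth applies to arrays, so the number of arrays limits the precision.

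Probe sets were named from GEO's platform annotation, updated through Entrez IDs (34741 of 34945 with 1 symbol matched). The 932 with several symbols, those with none and the control probe sets were left out of the tests. Each of the 18193 genes kept its brightest probe set. The 44 members had 98 probe sets in all, and 8 members had only 1. Adjusted p of a second probe set are over all probe sets with 1 symbol.

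With limma 3.58.1 (R 4.3.3), lmFit and eBayes were run on all arrays of a normalization, giving 5 comparisons with Benjamini-Hochberg adjustment over all genes at 0.05. Spread was tested by the same fit on the absolute distance from the group median. Values by array are given for every member called and for Mcm6, Mcm5, Pcna, Ccne1, Cdc6, Tyms, Pola1 and Rfc3 in any case, for up to 4 called genes of each other list, and for the 5 genes most similar in pattern. Members and lists (other replication genes, mitosis genes and markers of 6 cell types) were chosen with earlier results of these data known. Other members and Mcm7 are named where they illustrate a group, after their values were seen. The scripts were tested on simulated data. Alternatives were the hybridization control level as a block (with and without a sex index), RNA integrity, a replicate block, array weights, equal array medians, the mean of a gene's probe sets, genes above the median signal and each array left out. Replicate numbers were not taken to pair arrays.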

Additional observations from a re-analysis of the deposited data

Results flagged for a closer look

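In groups of 4 to 10 arrays, 33 of 135 groups of values had their highest or lowest array set apart from the others by Dixon's criterion, which chance gives in about 1 of 20 groups. Members share arrays, so these are not separate events. The mean deviation of the 44 members was highest in 3aKO replicate 1, at 1.06, and that array's value stood apart for 29 members. Among licensing genes its log2 value was 10.32 for Mcm2, 9.77 for Mcm3, 10.07 for Mcm4, 11.15 for Mcm7, 7.16 for Cdc6 and 10.31 for Cdt1. It was 8.18 for Gins1 and 8.25 for Gins2. Among primase and polymerases it was 9.04 for Prim1, 8.06 for Prim2, 7.22 for Pold1, 8.2 for Pole and 7.87 for Pole2. Around the clamp it was 11.75 for Pcna, 8.24 for Rfc3, 8.68 for Rfc4, 9.26 for Rfc5, 10.68 for Fen1, 9.03 for Lig1, 11.11 for Rpa1 and 8.84 for Rpa2. Among the rest it was 9.49 for Rrm1, 9.43 for Rrm2, 8.38 for Dut, 9.94 for Ung, 7.75 for Chaf1b, 8.48 for Uhrf1, 9.54 for Dnmt1 and 9.67 for Slbp.

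In 1KI, replicate 6 stood apart at the low end for Pcna (9.38), Orc1 (7.15) and Dut (6.61). The same array had the largest 3' minus 5' difference of all arrays, at 1.75, and its part in these values was not tested.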

How the results depend on the processing

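Blocking on the hybridization control level, 1 member each was called lower in 1KI versus wt, 1KI versus 3aKO and 3bKI versus wt, and 2 in 3bKI versus 3aKO. With a sex index added these were 1, 1, 2 and 2. The call of 1 higher member in both 3bKI comparisons became 0 under both of these fits, with RNA integrity and among genes above the median signal. The median change turned to 0.028 in 3bKI versus wt with the block and to 0.018 in 1KI versus wt with block and sex index. With RNA integrity, 2 members were lower in 3bKI versus wt and 1 versus 3aKO. Array weights left 9 lower in 1KI versus 3aKO. Equal array medians gave 12 lower in 3bKI versus 3aKO and 0 higher in 3bKI versus wt. The mean of a gene's probe sets gave 2 higher in both 1KI comparisons, 3 in 3bKI versus wt and 2 versus 3aKO, and turned Slbp to 0.17 in 1KI and 0.16 in 3bKI versus 3aKO. Deviations from the group mean called a different spread for 2 members in 3bKI versus wt and 1 versus 3aKO. The causes were not tested. Apart from the block on the hybridization controls, the shares of all genes called in the fits of this section are not given. Shifts in these counts of members are therefore not read as results about the members.

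Leaving out 1 array at a time gave 5 to 15 lower members in 1KI versus wt, 10 to 20 in 1KI versus 3aKO, 4 to 6 in 3bKI versus wt and 7 to 12 in 3bKI versus 3aKO. It gave 0 to 1 higher members in 3bKI versus wt and 1 to 2 versus 3aKO, and 0 to 2 and 0 to 1 members with a called spread. The median change in 3aKO versus wt ran from -0.020 without 3aKO replicate 1 to 0.14 without wt replicate 12.

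With the replicate number as a block, 4 members were lower in 1KI versus wt and 0 higher in 3bKI versus wt, where Pola1 had -0.91 (limma, adjusted p = 6.73e-06) and -0.81 (adjusted p = 0.000406). Of the calls versus wt that fit kept 4 of 9 in 1KI and 4 of 7 in 3bKI, where Mybl2, Rpa1 and Ung were lost. Versus 3aKO it kept 13 of 14 and 8 of 8. Same-numbered arrays did not deviate together throughout. Their deviations had a mean correlation of 0.07 between wt and 3aKO, 0.02 between wt and 1KI and 0.18 between 3aKO and 1KI. With 3bKI it was 0.02 for wt and -0.08 for 3aKO. Arrays with different numbers had means of -0.006, -0.002, -0.020, -0.001 and 0.009 in the same order. Between 3aKO and 1KI, 7 of 10 same-numbered pairs exceeded 0.1. The numbers are not taken as a pairing, but these values do not exclude one. Of the values of named members that did not pass, 49 of 1323 changed sign in some setting. Dim members, Tyms and Cdc6 among them, are limited by signal over background.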
